A study of Mus musculus with 8 samples.

Results

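TIMPs, A2m and Reck are inhibitors of extracellular proteases, and their transcripts were followed here in mouse corneas. All probe sets that the platform annotation assigns to Timp1, Timp2, Timp3, Timp4, A2m or Reck and to no other symbol were taken, which gave 15 of the 45101 probe sets on the array and 6 of 18193 named genes. Timp2 had 6 probe sets, Timp3 had 4, Timp4 had 2, and Timp1, A2m and Reck had 1 each. RNA was measured on 8 one-colour arrays, 4 of corneas from mice with overexpression of TGF-beta (TGFB) and 4 of corneas from wildtype littermates. The growth factor TGF-beta promotes scarring of wounds, and the question here is whether its overexpression goes with other levels of the inhibitors. The labels give neither the isoform, the promoter and the cells that make it, nor the age and strain of the mice. Nothing in them says that the arrays come from different animals, and the spread that p-values rest on may thus be technical. The arrays are numbered 1 to 4 within a group and the numbers pair no arrays.

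Matrix metalloproteinases cut collagens and other matrix proteins, and in a healing cornea they decide with their inhibitors how the stroma and the epithelial basement membrane are remodelled. TIMPs are small secreted proteins that block the active site of these enzymes. TIMP3 stays bound to the matrix and also blocks members of the ADAM family. Alpha-2-macroglobulin, the product of A2m, is a large secreted protein that traps proteases of many classes and is then cleared through the receptor LRP1. RECK is a membrane-anchored protein that restrains metalloproteinases at the cell surface.

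In the mouse genome annotation Timp1 lies within the span of the synapsin gene Syn1, Timp3 within Syn3 and Timp4 within Syn2, while no protein-coding gene spans Timp2. Start regions of 300 bases, from 250 before to 50 after the annotated start, were taken from RefSeq for the genes other than A2m (assembly GRCm38.p6). They are shown for Timp1, whose log2 values had the largest SDs of the TIMP probe sets within both groups (1.06 and 0.83), and for Timp4, which was dim on every array. The Timp1 region is chrX:20869916-20870215 on the plus strand and the Timp4 region is chr6:115252156-115252455 on the minus strand. Capitals mark the letters TGAGTAA, a variant of the binding site of the AP-1 factors Fos and Jun, and the GC box GGGCGG, each searched on both strands.
Timp1: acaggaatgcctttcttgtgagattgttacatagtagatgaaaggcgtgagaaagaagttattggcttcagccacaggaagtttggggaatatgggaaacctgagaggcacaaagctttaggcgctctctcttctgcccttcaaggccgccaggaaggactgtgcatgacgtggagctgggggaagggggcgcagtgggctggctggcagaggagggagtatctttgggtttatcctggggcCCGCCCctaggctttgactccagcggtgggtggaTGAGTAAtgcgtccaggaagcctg
Timp4: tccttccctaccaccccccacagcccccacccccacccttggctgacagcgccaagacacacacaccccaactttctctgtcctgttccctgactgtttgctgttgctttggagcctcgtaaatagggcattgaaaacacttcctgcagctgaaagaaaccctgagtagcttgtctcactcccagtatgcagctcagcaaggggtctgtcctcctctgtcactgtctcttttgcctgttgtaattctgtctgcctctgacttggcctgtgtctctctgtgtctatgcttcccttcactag
The letters TGAGTAA stood in the Timp1 region from base 27 after the start, in none of the other 4 regions, and in 2.68% of 32851 regions of this length. The GC box stood in the regions of Timp1, Timp2, Timp3 and Reck, not in that of Timp4, and in 35.7% of all regions. The AP-1 consensus TGANTCA (7.81% of all regions), the STAT site TTCNNNGAA (8.30%), the SMAD site GTCTAGAC (0.213%) and the TATA box TATAAA (13.6%) were found in none of the 5 regions. A match describes these letters only and says nothing of binding.

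Transcripts of the cornea were present on every array, but unevenly. The epithelial keratin Krt12 had signals of 289 in TGFB 1 and 562 in wildtype 4, and from 3008 to 5766 in the others. The mean of 8 corneal epithelium markers on the log2(signal + 16) scale was 9.45 in wildtype 4 and ran from 9.98 to 11.19 in the others. Signals of the stromal proteoglycan Kera ran from 2073 to 8110 and were highest in wildtype 4. Transcripts of neighbouring tissue were present as well. The mean of 7 cornified epidermis markers on the log2(signal + 16) scale was 12.22, 12.59 and 11.45 in TGFB 1, TGFB 2 and wildtype 2, and lay between 6.24 and 7.20 in the other 5 arrays. The mean of 10 markers of pigment cells, iris and ciliary body ran from 7.34 to 8.87 in TGFB and from 8.72 to 10.96 in wildtype arrays. None of these 10 markers was below a signal of 16 on all arrays. The mean of 8 lens markers ran from 4.6 to 9.53 in TGFB and from 4.97 to 10.3 in wildtype arrays. That of 6 skeletal muscle markers ran from 10.04 to 10.91 in TGFB and from 10.33 to 11.26 in wildtype arrays.

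No inhibitor differed between TGFB and wildtype corneas past the threshold. On the log2(signal + 16) scale, the lowest mean relative to wildtype was that of A2m, at 0.25 times the wildtype level (a log2 difference of -2.02, SE 0.70), and the highest was that of Timp1, at 1.70 times (0.76, SE 0.55). The brightest probe sets of Timp3 (-0.080, SE 0.34) and Reck (-0.29, SE 0.25) lay closer to 0, and Timp2 probe sets went both ways. Differences are TGFB minus wildtype on that scale, which understates the change of dim probe sets.

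Limma adjusted p-values of the 15 probe sets, adjusted over all 45037 tested, ran from 0.837 to 0.993, and none was under 0.05. Among all probe sets the count was likewise 0 (0%) in either direction. At an unadjusted p under 0.05, A2m was the 1 member lower in TGFB (limma unadjusted p = 0.0183), where 3.16% of all probe sets were lower, and 0 members were higher, where 2.70% were (5.86% in both directions). The groups did not overlap for 0 of the 15 members, against 3.28% of all probe sets (1.47% higher and 1.81% lower). Of the 15 differences, 7 were above 0 and 8 below, with a median of -0.055, and over all probe sets tested the median was 0.0090. The 95% interval of the difference included 0 for 14 of the 15.

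**Figure D1:**
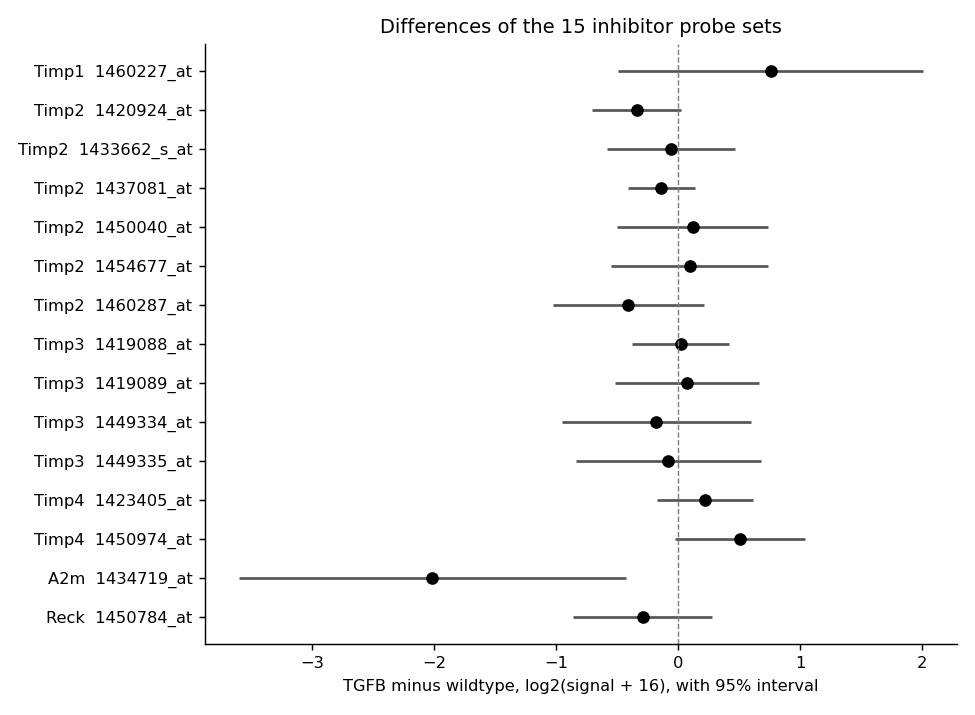
Difference of each of the 15 probe sets between TGFB and wildtype arrays on the log2(signal + 16) scale (x axis), with its 95% interval from limma, by gene and probe set (y axis). The intervals of 14 probe sets cross 0, and that of A2m runs from -3.60 to -0.43.

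A2m (probe set 1434719_at) had signals of 51.3, 111, 403 and 440 across TGFB 1 to 4 and of 1578, 584, 1382 and 311 across wildtype 1 to 4. TGFB 1 and TGFB 2 lay below every wildtype array, while wildtype 4 lay below TGFB 3 and TGFB 4, so the groups overlapped. The highest signal was 30.8 times the lowest, the widest span of the 15 probe sets. Group means were 7.65 ± 1.35 in TGFB and 9.67 ± 1.08 in wildtype arrays (SD, n = 4 each), a log2 difference of -2.02 with a 95% interval from -3.60 to -0.43 (limma adjusted p = 0.837). In older mouse nomenclature the symbol A2m also stood for Pzp, a related inhibitor, which has its own probe set here.

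The order of the arrays by A2m was close to their order by pigment, iris and ciliary body markers. From high to low A2m ran wildtype 1, wildtype 3, wildtype 2, TGFB 4, TGFB 3, wildtype 4, TGFB 2 and TGFB 1, and the marker mean gave the same order except that TGFB 3 and TGFB 4 changed places. The marker mean itself was 8.30 ± 0.70 in TGFB and 9.85 ± 0.99 in wildtype arrays, a difference of -1.54. Retina and pigment epithelium markers, of which 9 of 10 were measured, ran from 5.14 to 5.65 in TGFB and from 5.37 to 8.07 in wildtype arrays, and Prph2 was below a signal of 16 on all arrays. Their order was close to that of A2m as well. From high to low it was wildtype 1, wildtype 3, wildtype 2, TGFB 3, TGFB 4, wildtype 4, TGFB 1 and TGFB 2. In a fit chosen after seeing the data, with the pigment marker mean as a further term, the A2m difference was 0.034 (limma adjusted p = 1.00). In 8 arrays the marker mean and the group cannot be told apart by that fit. Without the 3 arrays with cornified epidermis transcripts, also added later, the A2m difference was -1.04. In bulk tissue, fewer cells of a type and less RNA per cell cannot be told apart.

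**Figure D2:**
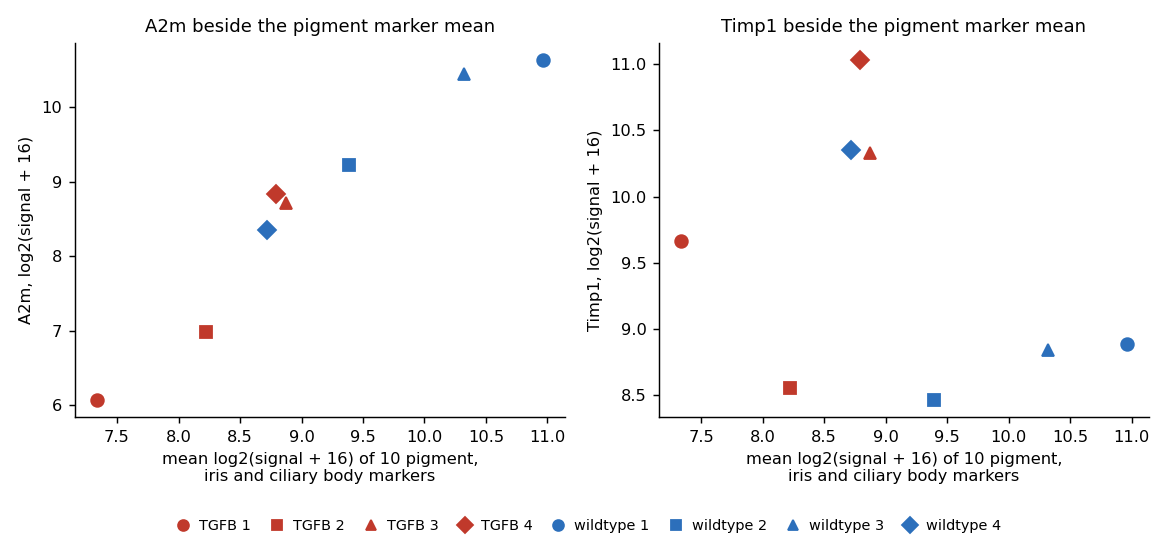
A2m (left) and Timp1 (right) on the log2(signal + 16) scale (y axes) against the mean of 10 pigment, iris and ciliary body markers on the same scale (x axes), 1 point per array, with TGFB in red and wildtype in blue. A2m climbs with the marker mean from TGFB 1 at 7.34 to wildtype 1 at 10.96, while Timp1 is highest in TGFB 4, wildtype 4 and TGFB 3, which lie in the middle of that range.

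Timp1 (probe set 1460227_at), the TIMP that cytokines and growth factors induce in wounds, had signals of 796, 358, 1272 and 2083 across TGFB 1 to 4 and of 456, 336, 441 and 1289 across wildtype 1 to 4. TGFB 4, wildtype 4 and TGFB 3 were high, TGFB 1 lay between, and TGFB 2 was at the level of the other 3 wildtype arrays. Group means were 9.90 ± 1.06 and 9.13 ± 0.83 (SD, n = 4 each), a log2 difference of 0.76 with a 95% interval from -0.49 to 2.01 (limma adjusted p = 0.911). Single arrays weighed on this value. The difference was 0.38 without TGFB 4, 1.21 without TGFB 2 and 1.17 without wildtype 4. It was 1.19 with array weights and 1.33 without the 3 arrays with cornified transcripts, and none of these passed.

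The 3 arrays with the highest Timp1 were also the 3 highest for 2 of the 16 genes of the interleukin-6, STAT3 and AP-1 list, Socs3 and Fosl1. They were so too for genes of other lists: the inhibitor list (Serpina3n, Wfdc2 and the non-inhibitor Pcolce2), the metalloproteinases (Mmp10 and Mmp12) and the binding partners (Itgb1). The pattern was thus not particular to the interleukin-6 list. All these genes were looked up after the values were seen. The receptor subunit gene Il6st was lowest in wildtype 4, and Lifr was lowest in those 3 arrays. Socs3, a feedback inhibitor of STAT3 signalling, had signals of 322, 262, 700 and 1008 across TGFB 1 to 4 and of 167, 317, 257 and 664 across wildtype 1 to 4. Serpina3n, a secreted serine protease inhibitor of the acute phase, had signals of 290, 221, 1342 and 2296 against 189, 51.8, 39.5 and 864. For Socs3 and Serpina3n TGFB 4, TGFB 3 and wildtype 4 were the highest arrays, in that order, as they were for Timp1 with wildtype 4 ahead of TGFB 3. The log2 differences of Socs3 (0.65, SE 0.49) and Serpina3n (2.10, SE 0.99) did not pass (limma adjusted p = 0.912 and 0.853).

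**Figure D3:**
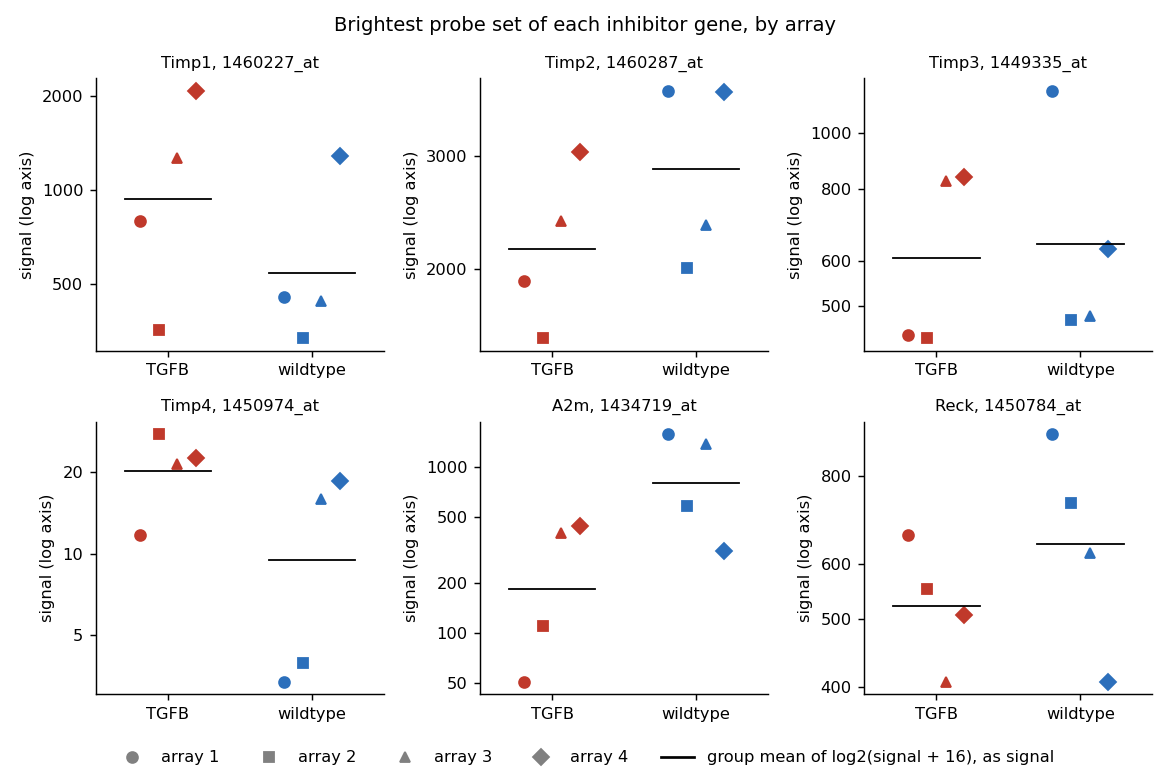
Signal (y axis, logarithmic) of the brightest probe set of each of the 6 genes in the TGFB and wildtype arrays (x axis), with a marker shape for each array number and a line at the group mean of log2(signal + 16) turned back into signal. TGFB and wildtype arrays overlap in every panel, and wildtype 4 is the lowest wildtype array for A2m and Reck but the highest for Timp1 and Timp4.

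Timp2, an inhibitor made by stromal fibroblasts that also takes part in the activation of pro-MMP2 with MMP14, was measured by 6 probe sets that did not move as 1. Its brightest probe set, 1460287_at, had signals of 1913, 1561, 2373 and 3035 across TGFB 1 to 4 and of 3784, 2005, 2338 and 3772 across wildtype 1 to 4. Wildtype 1 and wildtype 4 were the highest arrays, and TGFB 1 and TGFB 2 lay below all wildtype arrays. The log2 difference was -0.41 with a 95% interval from -1.03 to 0.21 (limma adjusted p = 0.906). It was -0.25 without TGFB 2, -0.27 without wildtype 1, -0.27 without wildtype 4 and -0.18 with array weights. With the settings added later it was -0.26 without the 3 arrays with cornified transcripts and -0.19 with the pigment marker mean as a further term. The mean of 10 keratocyte and fibroblast markers ran from 10.43 to 10.78 in TGFB and from 10.90 to 11.11 in wildtype arrays, without overlap. Among the 10 is Ptgds, which ranked the arrays as A2m did. Its signals ran from 367 to 1874 in TGFB and from 1390 to 5407 in wildtype arrays. The mean was not taken without Ptgds. The gap was narrowest between TGFB 2 (10.78) and wildtype 2 (10.90), where Ptgds signals were 879 and 2745. This difference in Ptgds is large enough to make that gap, so the absence of overlap rests on this gene. The part of these cells in the Timp2 signal was not tested.

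Probe set 1454677_at of Timp2 gave signals of 3953, 1654, 2240 and 2575 against 3218, 1917, 1784 and 2641. Here TGFB 1 was the highest of the 8 arrays, not among the lowest, and the difference was 0.093 (SE 0.29). Probe set 1433662_s_at gave -0.055 (SE 0.23) and 1450040_at 0.12 (SE 0.27). Over the 8 arrays Pearson's r between pairs of Timp2 probe sets ran from -0.44 to 0.80, a description of values that share the same RNA. Between the 2 brightest it was 0.43. TGFB 2 was the lowest array for 5 of the 6 probe sets. Of the dim probe sets, 1420924_at had signals from 20.2 to 42.3 and a difference of -0.34 (SE 0.16), and 1437081_at did not exceed a signal of 4.62 on any array.

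Timp3, which stays in the matrix and is abundant in Bruch's membrane of the eye, had 4 probe sets with differences from -0.18 to 0.071. The brightest, 1449335_at, had signals of 446, 440, 827 and 839 across TGFB 1 to 4 and of 1185, 473, 482 and 630 across wildtype 1 to 4. Wildtype 1 was highest, followed by TGFB 4 and TGFB 3, and the 2 TGFB arrays with cornified transcripts were lowest. The log2 difference was -0.080 with a 95% interval from -0.84 to 0.68 (limma adjusted p = 0.986).

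The other bright Timp3 probe set, 1419089_at, had signals of 330, 367, 475 and 411 against 558, 276, 488 and 254, with a difference of 0.071 (SE 0.26). Wildtype 1 was again highest, but wildtype 4 was the lowest. Between pairs of Timp3 probe sets r ran from 0.56 to 0.85, and wildtype 1 was the highest array for each of the 4. The pigment epithelium gene Rpe65 had a signal of 250 in wildtype 1 and at most 6.28 in the other arrays. The part of that tissue in the Timp3 signal was not tested.

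**Figure D4:**
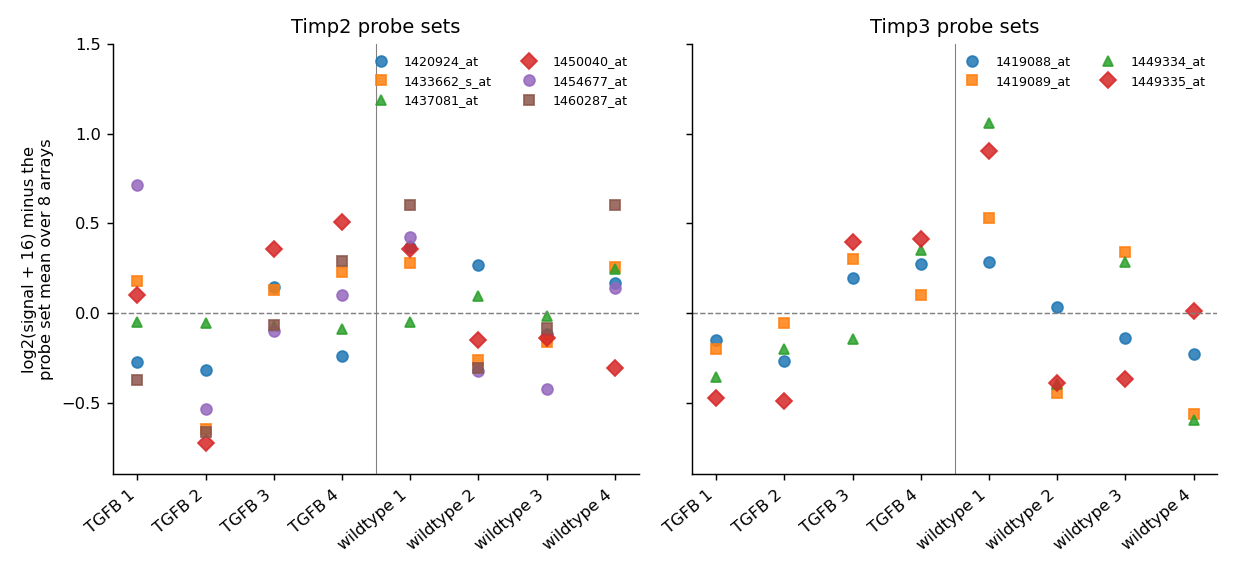
Each probe set of Timp2 (left) and Timp3 (right) as log2(signal + 16) minus its own mean over the 8 arrays (y axis), by array (x axis), with the groups parted by a vertical line. The Timp3 probe sets are all highest in wildtype 1, while the Timp2 probe sets scatter in both directions in TGFB 1.

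Timp4, a TIMP of heart, brain and fat tissue, was dim. Probe set 1450974_at had signals of 11.7, 27.7, 21.5 and 22.6 across TGFB 1 to 4 and of 3.37, 3.95, 15.9 and 18.6 across wildtype 1 to 4. The 3 highest arrays were TGFB arrays and the 2 lowest were wildtype arrays, with TGFB 1 below wildtype 3 and wildtype 4. The log2 difference was 0.51 with a 95% interval from -0.026 to 1.04 (limma adjusted p = 0.850). It was 1.19 with an offset of 1 in place of 16 and 0.33 with an offset of 32. Probe set 1423405_at had signals from 10.6 to 19.1 and from 5.96 to 18.0, with a difference of 0.22 (SE 0.17). Both lay below the median probe set, at the 35.5 and 31.9 percentile of mean brightness. Adipocyte markers, of which 6 of 8 were measured, ran from 5.38 to 6.04 in TGFB and from 4.94 to 5.53 in wildtype arrays, and Cidec, Lep and Retn were below a signal of 16 on all arrays.

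Reck (probe set 1450784_at) had signals of 659, 552, 407 and 506 across TGFB 1 to 4 and of 920, 733, 622 and 407 across wildtype 1 to 4. The 2 highest arrays were wildtype arrays, but wildtype 4 was at the level of the lowest TGFB array. The log2 difference was -0.29 with a 95% interval from -0.86 to 0.28 (limma adjusted p = 0.920). Leaving out wildtype 4 gave -0.50, leaving out wildtype 1 gave -0.12 and leaving out TGFB 3 gave -0.17. The difference was -0.066 with the pigment marker mean as a further term.

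Whether proteases and their inhibitors shifted unequally was asked for 6 pairs, as the log2 difference between protease and inhibitor on the same array. The pairs were chosen with earlier results of these data known. Mmp9, the gelatinase of wounded epithelium and of inflammatory cells, had signals of 118, 17.4, 194 and 176 across TGFB 1 to 4 and of 10.9, 12.8, 11.0 and 55.8 across wildtype 1 to 4. Mmp9 minus Timp1 was -2.60, -3.49, -2.61 and -3.45 across TGFB 1 to 4, against -4.13, -3.61, -4.08 and -4.18 across wildtype 1 to 4. All 4 TGFB arrays lay above all wildtype arrays, by a mean of 0.97. The exact two-sided permutation p was 0.0286, the smallest that 4 against 4 arrays allow, and 0.171 after adjustment over the 6 pairs. With this smallest p at least 4 of the 6 pairs would have to separate fully for any to pass, so the adjusted test could not have called 1 pair alone. The mean was 1.57 with an offset of 1 and 0.65 with an offset of 32, and 3 wildtype arrays had Mmp9 signals below the offset used.

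Mmp9 minus Reck was higher in TGFB by 2.02, with 3 of 4 TGFB arrays above all wildtype arrays (exact permutation p = 0.0571, adjusted 0.171). Mmp2 minus Timp2 differed by 0.53 (adjusted exact p = 0.286), Mmp14 minus Timp2 by 0.47 (0.343) and Mmp13 minus Timp1 by 0.42 (0.343). In each of these 3 pairs the 4 TGFB arrays lay above the wildtype mean but overlapped the wildtype arrays. The collagenase gene Mmp13 was dim, with signals from 1.05 to 75.5, and its pair gave 1.60 with an offset of 1, 0.079 with an offset of 32 and 0.18 without wildtype 4. Adam17 minus Timp3, the shedding protease with its matrix-bound inhibitor, differed by -0.19 (adjusted exact p = 0.771), with 2 TGFB arrays on each side of the wildtype mean. The pairs share Mmp9, Timp1 and Timp2 and are not independent of each other.

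**Figure D5:**
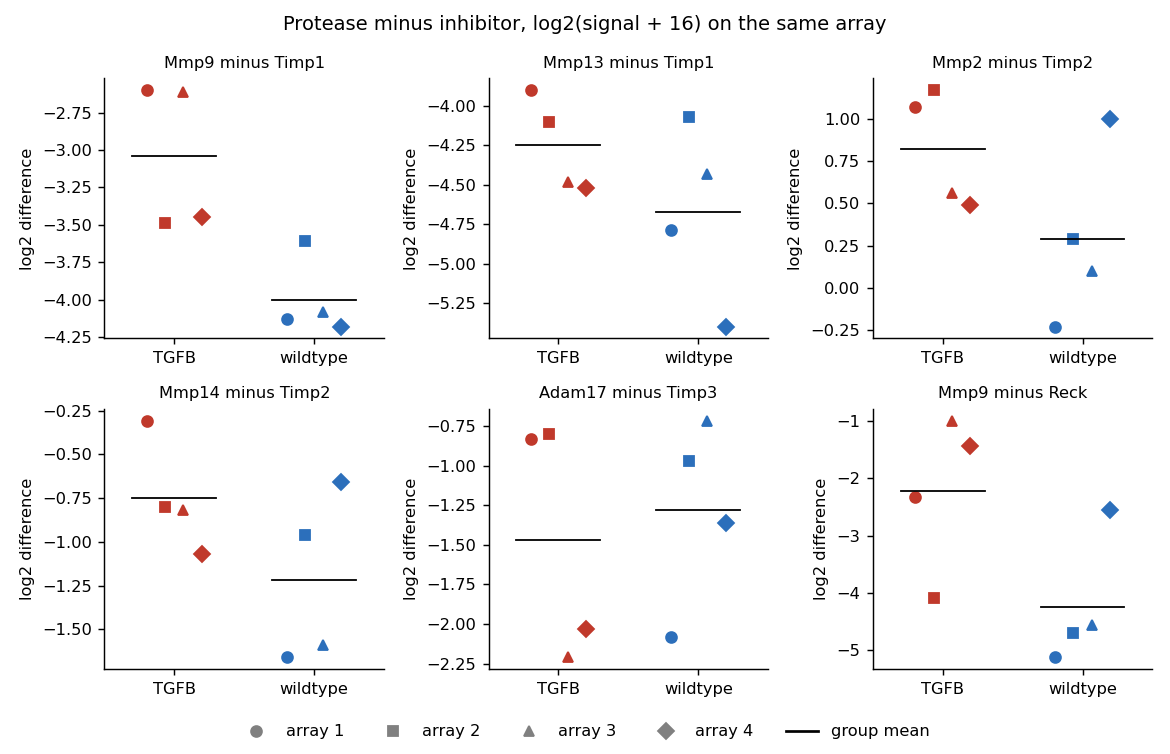
Log2(signal + 16) of a protease minus that of an inhibitor on the same array (y axis) for 6 pairs in TGFB and wildtype arrays (x axis), with a marker shape for each array number and a line at the group mean. The TGFB arrays lie above all wildtype arrays for Mmp9 minus Timp1, from -3.49 to -2.60 against -4.18 to -3.61, and overlap them for the other 5 pairs.

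None of the other genes of the pathway passed either. Of 26 probe sets of 15 metalloproteinase genes, 0 passed at the adjusted threshold, and 4 were higher and 1 lower at the unadjusted threshold, where 2.70% of all probe sets were higher and 3.16% lower. Their median difference was 0.063, against 0.0090 over all probe sets. By p, Mmp13 (1.19, SE 0.39), Mmp9 (1.73, SE 0.58) and the stromelysin Mmp3 (0.90, SE 0.35) led this list. Of 27 probe sets of 11 ADAM and ADAMTS genes, 2 were higher and 0 lower at the unadjusted threshold (2.70% and 3.16% of all probe sets), with a median of 0.016. Adam8, a protease of myeloid cells, had a difference of 1.00 (SE 0.39), Adam12 one of 0.44 (SE 0.18) and the aggrecanase Adamts5 one of -0.40 (SE 0.21). Adjusted p-values from limma ran from 0.837 to 0.883 for these 6 genes.

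Receptors and binding partners gave 0 higher and 4 lower of 30 probe sets at the unadjusted threshold, against 2.70% and 3.16% of all probe sets, with a median of -0.11. By the brightest probe set of each of the 10 genes measured, 5 were higher and 5 lower. At the unadjusted threshold 0 of these genes were higher and 2 lower, Lrpap1 and Efemp1. Lrpap1, the chaperone of the A2m receptor LRP1, had signals of 2244, 2269, 2403 and 2643 across TGFB 1 to 4 and of 3599, 2786, 3384 and 4033 across wildtype 1 to 4. The groups did not overlap, as for 1.81% of all probe sets with TGFB lower, and the log2 difference was -0.52 (SE 0.15, limma adjusted p = 0.834). Lrp1 itself gave 0.13 (SE 0.16). Efemp1, a fibulin that binds TIMP3, had signals of 463, 934, 436 and 482 against 2275, 2053, 2716 and 389. Its 3 high arrays were wildtype 1 to wildtype 3, and wildtype 4 lay below all TGFB arrays (-1.42, SE 0.57, adjusted p = 0.837).

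The interleukin-6, STAT3 and AP-1 list holds known inducers of Timp1 and A2m in other tissues, but also the feedback inhibitor Socs3. All 16 of its genes had a higher mean in TGFB arrays by their brightest probe set. The share of all genes that were higher by that measure was not taken. Some of the differences were small against their SE, such as Lifr (0.044, SE 0.33) and Stat3 (0.13, SE 0.19), and some genes, such as Fosb, were dim. Over all 34 of their probe sets 28 were higher and 6 lower, with a median of 0.21, where 51.6% of all probe sets were higher. None passed at the adjusted threshold, and 3 were higher and 0 lower at the unadjusted one, where 2.70% and 3.16% of all probe sets were. Il6 did not overlap between groups, as for 1.47% of all probe sets with TGFB higher, but was dim. Its signals were 9.04, 7.94, 24.4 and 22.9 across TGFB 1 to 4 and 4.63, 0.251, 1.01 and 6.01 across wildtype 1 to 4 (0.73, SE 0.21). Fos, a subunit of AP-1, had signals of 1014, 831, 680 and 1076 against 412, 622, 377 and 693, a difference of 0.78 (SE 0.23), and Fosl2 gave 0.47 (SE 0.20). The limma adjusted p of the 3 genes was 0.834, 0.834 and 0.840.

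The list of other extracellular protease inhibitors went both ways. At the unadjusted threshold 3 of its 31 probe sets were higher and 6 lower (2.70% and 3.16% of all probe sets), with a median of -0.30. The list also holds genes whose products do not inhibit proteases, among them Pcolce, Pcolce2, Serpinf1 and Serpinh1. Its counts and medians are thus not those of inhibitors alone. By the brightest probe set of each of the 19 genes measured the median had the opposite sign, 0.18, with 10 genes higher and 9 lower and, at the unadjusted threshold, 3 higher and 2 lower. The 2 lower genes were Pi16 and Pcolce, an enhancer of procollagen C-proteinase that does not inhibit it (-0.49, SE 0.19). The leukocyte protease inhibitor Slpi had signals of 32.8, 45.0, 63.8 and 58.3 across TGFB 1 to 4 and of 24.0, 17.9, 14.8 and 25.8 across wildtype 1 to 4. The groups did not overlap, as for 1.47% of all probe sets with TGFB higher, and the difference was 0.83 (SE 0.19, limma adjusted p = 0.822). Tfpi2, a Kunitz inhibitor of matrix serine proteases, gave 1.11 (SE 0.37). Pi16, a fibroblast gene, had signals of 69.3, 139, 80.5 and 60.9 against 911, 601, 1024 and 72.5, so that wildtype 4 sat among the TGFB arrays (-2.27, SE 0.70, adjusted p = 0.837). The keratocyte and fibroblast marker mean, whose lack of overlap between the groups rests on Ptgds, was 10.99 in wildtype 4.

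The genes most like each inhibitor over the 8 arrays were taken from 8192 genes with a mean of at least 7 on the log2(signal + 16) scale, by Pearson's r. This describes the same 8 libraries and is given without a test. A2m was nearest to the phosphatase gene Ppm1h (r = 0.992, Spearman's rho = 0.976), the prostaglandin D synthase gene Ptgds (0.989 and 1.00) and the bicarbonate transporter gene Slc4a5 (0.986 and 0.881). Ptgds signals were 367, 879, 1546 and 1874 across TGFB 1 to 4 and 5407, 2745, 4952 and 1390 across wildtype 1 to 4, the same order of arrays as for A2m. Timp1 was nearest to the chromatin remodeller Chd1 (r = 0.979), the zinc finger gene Zfp281 (0.975) and the phosphate transporter Slc20a1 (0.975). Timp2 was nearest to Itgbl1 (0.977), Ninj1 (0.977) and Kcne4 (0.975), and Timp3 to Clba1 (0.968), Tspo (0.958) and the endothelin receptor Ednrb (0.951). Reck was nearest to the tetraspanin Tspan9 (0.972), the kinase Stk16 (0.968) and Cab39l (0.963). Timp4, dim on every array, was nearest to Mrpl57 (0.959), Tulp3 (0.926) and Trmt1 (0.920).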

How the data were processed

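Intensities of 8 arrays were deposited as a table on a linear scale, 1 value per probe set. The sources used here do not name the tool behind them. The 2% trimmed mean was 150.001 on every array and median signals ran from 26.3 to 34.4, so arrays were not normalized again. Signals were put on a log2(signal + 16) scale, and 64 control probe sets were left out. A platform annotation of 2016 gave 1 symbol to 34945 of the 45037 probe sets, several to 932 and none to 9160, and 34741 were matched to RefSeq symbols (assembly GRCm38.p6).

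TGFB arrays were set against wildtype arrays in limma 3.58.1 under R 4.3.3 (eBayes, 9.22 total degrees of freedom), with every probe set as its own unit, Benjamini-Hochberg adjustment over all of them and a threshold of adjusted p under 0.05. Protease and inhibitor pairs used an exact two-sided permutation test over 70 assignments of arrays. The limma fit was also tested on simulated data with independent noise for each probe set. That noise holds no tissue differences shared by many probe sets, so the simulation does not cover them. The number of arrays limits the precision.

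Members, lists, pairs and tests were chosen with earlier results of these data known. Named are all members, both genes of each pair, the brightest probe set of up to 3 genes with the smallest p per list, and the 3 genes most like each member. Other genes were named after their values were seen. Some listed genes were not analysed here. The brightest probe set of a gene has the highest mean over the 8 arrays.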

Additional observations from a re-analysis of the deposited data

Results flagged for a closer look

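Of 30 sets of 4 arrays (15 probe sets in 2 groups), 2 held an array whose gap to its nearest neighbour was large against the range of its group. Chance alone gives this in about 1 of 20 such sets. The Timp2 probe set 1433662_s_at had its lowest TGFB signal, 878, in TGFB 2, against 1513 to 1627 in the other TGFB arrays. The dim Timp2 probe set 1420924_at had its highest TGFB signal, 34.0, in TGFB 3, against 20.2 to 22.2.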

How the results depend on the processing

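No inhibitor probe set passed under any of the 18 other settings, which changed the offset, normalization, filter, unit, variance model, weights or arrays, and none of the listed pathway genes passed in the settings run for them. Among all probe sets 0 passed in each setting except without wildtype 4, where 2 did, so counts without 1 array ran from 0 to 2. The direction of A2m, Timp1, Reck, the brightest Timp2 probe set and Timp4 1450974_at held in all settings, with 1 exception. That was A2m with the pigment marker mean as a covariate (0.034), and over single arrays left out A2m ran from -2.45 to -1.49, Timp1 from 0.38 to 1.21 and Reck from -0.50 to -0.12. Of 258 values of members under other settings, 28 had the opposite sign. With array weights Timp2 1433662_s_at was 0.11 and Timp3 1449335_at 0.098. With median centring Timp3 1419088_at was -0.0065. Of the settings added after the data were seen, leaving out the 3 arrays with cornified transcripts gave 0.054 for Timp2 1433662_s_at, -0.043 for Timp2 1454677_at and 0.22 for Timp3 1449335_at. The pigment covariate gave -0.043 for Timp2 1454677_at, 0.73 for Timp3 1449334_at, 0.59 for Timp3 1449335_at and -0.057 for Timp4 1423405_at. Over single arrays left out, values ran from -0.15 to 0.15 for Timp2 1433662_s_at, from -0.028 to 0.38 for 1450040_at and from -0.13 to 0.29 for 1454677_at. For Timp3 they ran from -0.064 to 0.12 (1419088_at), from -0.10 to 0.26 (1419089_at), from -0.40 to 0.15 (1449334_at) and from -0.23 to 0.21 (1449335_at). Adam17 minus Timp3 ran from -0.45 to 0.060 and Mmp9 minus Timp1 from 0.82 to 1.12. The cause of these changes was not tested. No paired analysis was possible because the labels give the groups no shared replicate numbers.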

Other observations

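Transcripts of the synapsin genes that span 3 of the TIMPs were dim. Syn3 had signals of 20.5, 8.82, 24.3 and 32.3 across TGFB 1 to 4 and of 47.1, 38.0, 56.1 and 24.6 across wildtype 1 to 4, a log2 difference of -0.62 (SE 0.24, limma adjusted p = 0.837), while the brightest Timp3 probe set gave -0.080. Syn1 gave -0.38 (SE 0.31) and Syn2 -0.057 (SE 0.16). Relatives of A2m did not pass either. Pzp, a large protease trap of mouse plasma, had signals from 3.27 to 16.6 in TGFB and from 2.27 to 8.31 in wildtype arrays (0.41, SE 0.19). Cd109, a membrane-anchored member of the family, had signals of 445, 452, 211 and 195 against 202, 322, 301 and 249 (0.18, SE 0.30). Mug1 did not exceed a signal of 7.15 on any array.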
